A study of Mus musculus with 31 samples.

Results

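Pre-granulocytes (PreGr, n = 3 arrays) were compared with granulocyte-macrophage progenitors (GMP, n = 4 arrays), which together make up 7 of the 31 arrays in a series of 9 sorted mouse bone marrow populations. The arrays were taken by the population named in their titles. All cells came from wild-type C57BL/6 bone marrow, and the labels give no age, sex, animal or pool of animals. GMP were sorted from cKit-enriched marrow as cells that lacked lineage markers, among them Mac1 and Gr1, and carried cKit, Fcγ receptor and CD34. PreGr were sorted as Mac1+ cells with intermediate Gr1 staining, and the labels name no other antibody for that gate. Granulocytes (Gr, n = 3 arrays), Mac1+ cells with high Gr1 staining, follow PreGr in the series, and their values are given where they place a PreGr level between its neighbours. The series text calls the replicates biological. The comparison asks how expression changes when committed myeloid progenitors become maturing granulocytic cells.

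Neutrophils build their granules in a fixed order. The proteases of the primary granules are made in promyelocytes, the antimicrobial proteins of the secondary granules in myelocytes and metamyelocytes, and the proteases of the tertiary granules later still, while division stops on the way. The factor C/EBPε is needed for secondary granule genes, and PU.1, C/EBPα and Gfi1 act around the entry into the lineage. Mac1 is the integrin made of Itgam and Itgb2, and the Gr1 antibody binds Ly6G and, less well, Ly6C.

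The genes of the sort markers served as a check of the labels and are no finding, because the gates chose on them. Cd34 read 11.19, 10.91, 11.06 and 11.07 (log2 level, here and below) in GMP 1 to 4 and 7.24, 7.68 and 7.78 in PreGr 1 to 3. Kit stood at 10.31 to 10.74 in GMP and 8.56 to 8.65 in PreGr. Itgam went the other way, from 7.24 to 7.96 in GMP to 10.49 to 10.86 in PreGr, and Ly6g from 5.01 to 5.96 in GMP to 11.56 ± 0.54 (SD, n = 3) in PreGr and 12.90 to 13.07 in Gr. All 4 followed their gates without overlap. Ptprc, which encodes the pan-leukocyte antigen CD45, read 10.12 to 10.96 in GMP and 11.61 to 11.94 in PreGr. Of the Fcγ receptor genes, Fcgr3 read 10.27 to 10.42 in GMP and 10.20 to 10.35 in PreGr, and Fcgr2b 8.83 to 8.91 and 9.07 to 9.40.

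GMP 4 stood apart from the other arrays before any normalization. It shared 0 or 1 identical values with each of the 9 other GMP, PreGr and Gr arrays, against 59 to 251 between any other pair, and how the arrays were grouped when summarised is not given in the sources used here. Its deposited median was 6.86, against 7.27 to 7.29 in GMP 1 to 3 and 7.32 to 7.33 in PreGr, so the main comparison used quantile-normalized values. GMP 4 also held the outlying value in 1513 of the 1859 genes for which 1 of the 4 GMP arrays lay far from the others. It carried the highest reading of the X-inactivation transcript Xist among the GMP arrays, 11.54 against 5.74, 10.63 and 9.18, and the lowest of the Y-linked Eif2s3y, 4.50 against 9.41, 7.96 and 9.06. Without GMP 4, 1629 genes were called higher and 2420 lower, and named genes that gain or lose their call without it are given both ways.

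Of 19938 genes tested with limma, 3892 (19.5%) passed a Benjamini-Hochberg adjusted p of 0.05, the threshold for every call below. Of these, 1607 (8.06% of all genes) were higher in PreGr and 2285 (11.5%) were lower. These shares stand beside each main-fit list count of PreGr against GMP below, also where they are not repeated. A change of at least 2-fold was reached by 1000 called genes (5.02%), 536 higher (2.69%) and 464 lower (2.33%). The largest rises were larger than the largest falls, as the plot of change against level shows, with 6.56 at one end and -3.49 at the other. The median change of all genes was -0.02. Without GMP 4 the call was made for 4049 genes (20.3%), 1629 higher (8.17%) and 2420 lower (12.1%). On deposited values with GMP 4 kept, where the median of all genes lay at 0.13, 1590 genes were called, and 66.7% of them were higher, against 41.3% in the main fit. The PreGr and GMP arrays did not overlap for 5844 genes (29.3%), of which 2517 were higher (12.6% of all genes) and 3327 lower (16.7%). The fit included the 3 Gr arrays and so used their spread too. PreGr against Gr came from the same fit and shares the PreGr arrays with it. There, 4493 genes (22.5%) were called, 1973 (9.9%) higher in Gr and 2520 (12.6%) lower.

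**Figure D1:**
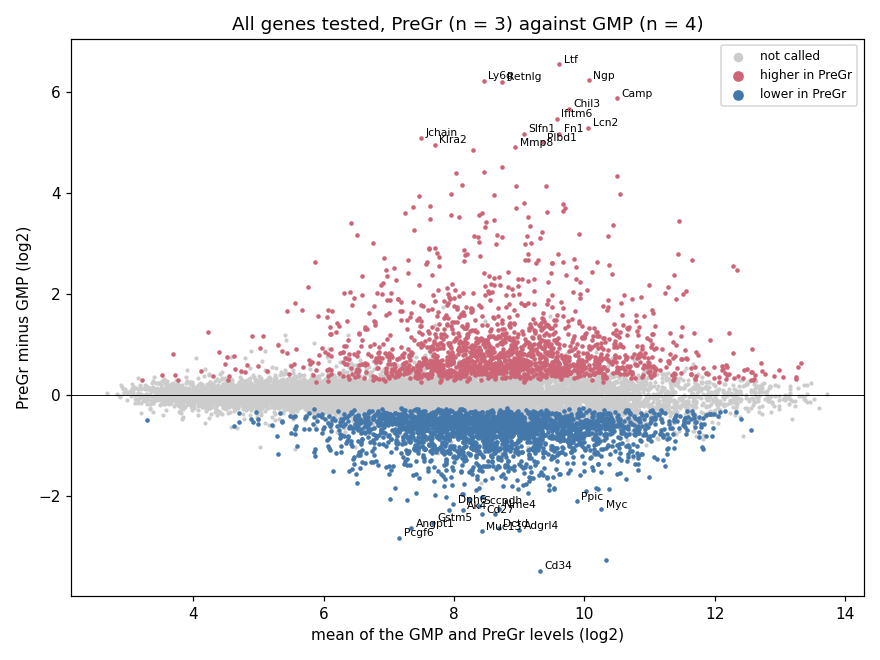
Change from GMP (n = 4) to PreGr (n = 3), in log2, plotted against the mean of both levels for each of 19938 genes, with the genes of the largest rises and falls named. Coloured points passed the adjusted p threshold of 0.05; Ltf lies highest at 6.56 and Cd34 lowest at -3.49.

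The secondary granule genes moved most. Of 20 measured members, 16 were called higher in PreGr and 0 lower, beside 8.06% and 11.5% of all genes. Their median change was 3.13. In 19 members every PreGr array lay above every GMP array, beside 12.6% of all genes. Arrays of sorted populations cannot tell apart a change in how many cells of a kind a gate held and a change in RNA per cell, here and in every list below. Promoter sequences of 5 of the genes with the largest rises are given, because a factor of the C/EBP family is known to be needed for this gene group. Each is the 250 bases before the transcription start, 5′ to 3′ on the gene's strand, from RefSeq (GRCm38.p6), and capitals mark matches to TTGCNNAA, a short C/EBP-type motif, on either strand.
Ltf (chr9:111019042-111019291, + strand): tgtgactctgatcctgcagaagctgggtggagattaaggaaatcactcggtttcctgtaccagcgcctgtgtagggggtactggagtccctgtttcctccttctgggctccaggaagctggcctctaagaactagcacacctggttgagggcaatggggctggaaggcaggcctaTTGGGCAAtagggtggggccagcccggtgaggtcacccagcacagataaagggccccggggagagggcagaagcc
Ngp (chr9:110419558-110419807, + strand): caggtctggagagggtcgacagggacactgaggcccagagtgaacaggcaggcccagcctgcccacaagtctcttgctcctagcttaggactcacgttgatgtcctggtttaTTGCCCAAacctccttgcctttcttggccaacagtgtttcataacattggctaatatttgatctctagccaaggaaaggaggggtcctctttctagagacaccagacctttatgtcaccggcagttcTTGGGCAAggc
Lcn2 (chr2:32387740-32387989, - strand): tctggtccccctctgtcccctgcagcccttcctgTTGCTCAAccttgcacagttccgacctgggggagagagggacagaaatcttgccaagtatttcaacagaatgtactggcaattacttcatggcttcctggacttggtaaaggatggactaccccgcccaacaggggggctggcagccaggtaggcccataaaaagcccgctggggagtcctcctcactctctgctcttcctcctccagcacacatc
Mmp8 (chr9:7558179-7558428, + strand): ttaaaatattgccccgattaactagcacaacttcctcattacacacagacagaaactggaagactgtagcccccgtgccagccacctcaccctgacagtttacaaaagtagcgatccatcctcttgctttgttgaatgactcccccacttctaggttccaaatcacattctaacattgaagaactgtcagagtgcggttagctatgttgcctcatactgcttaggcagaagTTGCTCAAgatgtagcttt
Camp (chr9:109849457-109849706, - strand): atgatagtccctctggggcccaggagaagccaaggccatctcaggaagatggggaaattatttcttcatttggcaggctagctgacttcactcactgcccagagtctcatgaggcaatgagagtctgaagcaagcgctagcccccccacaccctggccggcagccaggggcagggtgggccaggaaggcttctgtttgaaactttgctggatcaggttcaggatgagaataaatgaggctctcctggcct

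The match began 75 bases before the start in Ltf, 138 and 11 bases before it in Ngp, 216 in Lcn2 and 19 in Mmp8, and Camp had none in this window. The promoter of Chil3, which rose by 5.67 and so more than Lcn2 and Mmp8, was not among those shown. Among 17 secondary granule genes with a sequence, 6 (35.3%) held TTGCNNAA, the others being Ptx3 and Slpi. Neither Ptx3 nor Slpi was called in the main fit, while Camp, without a match, was called higher. The share was 9.56% of all 32851 promoters of the same length, 0 of 14 primary granule genes and 1 of 19 ribosome biogenesis genes. In the lists a gene counted if any of its promoters matched, while the share of all promoters counted each promoter. The list shares are thus not in the same unit as the share of all promoters. A PU.1-type motif, GAGGAA on either strand, was found in 7 of the 17 secondary granule genes, 8 of the 14 primary granule genes and 5 of the 19 ribosome biogenesis genes. Counted by promoter, it was found in 23.3% of all promoters. Each motif was counted on its own, with overlaps between them left in, and a match describes letters, not binding.

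Ltf, which encodes the iron-binding lactoferrin, read 5.97, 6.45, 6.49 and 6.42 in GMP 1 to 4 and 13.01, 12.72 and 12.94 in PreGr 1 to 3. It rose 94.3-fold (log2 6.56 ± 0.13 SE, adjusted p = 1.47e-10). Every PreGr array lay far above every GMP array, and Gr stood at 13.20 to 13.35. Ngp, the neutrophilic granule protein, read 6.47, 7.87, 6.77 and 6.68 in GMP and 13.17, 13.17 and 13.22 in PreGr, a rise of 6.24 ± 0.26 (SE, adjusted p = 5.4e-08). Camp, the precursor of the antimicrobial peptide cathelicidin, read 7.03, 8.61, 7.51 and 7.07 in GMP and 13.47, 13.43 and 13.43 in PreGr, a rise of 5.88 ± 0.30 (SE, adjusted p = 2.73e-07). GMP 2 was the highest GMP array for both genes. PreGr and Gr levels of Ngp and Camp differed by 0.16 and 0.06, and neither difference was called. The highest reading of any gene on these normalized arrays was 13.85, and whether the top of the scale limits a further rise was not tested.

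Lcn2, the siderophore-binding lipocalin, read 7.75, 7.88, 7.60 and 6.39 in GMP and 12.82, 12.58 and 12.71 in PreGr, a rise of 5.30 ± 0.28 (SE, adjusted p = 4.3e-07). Chil3, the chitinase-like protein Ym1, read 7.03, 8.12, 7.70 and 4.85 in GMP and 12.63, 12.56 and 12.60 in PreGr, a rise of 5.67 ± 0.58 (SE, adjusted p = 4.53e-05). GMP 4 was the lowest GMP array for both, and without it the rises were 5.00 and 5.03. Mmp8, neutrophil collagenase, read 6.88, 6.34, 6.62 and 6.08 in GMP and 12.01, 10.61 and 11.55 in PreGr, a rise of 4.91 ± 0.28 (SE, adjusted p = 6.43e-07). Unlike the lactoferrin and cathelicidin genes, Mmp8 was called still higher in Gr, at 13.32 to 13.42 (difference from PreGr 1.98, adjusted p = 0.00068).

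Olfm4, Chil1, Cd177, Orm1, Ceacam1 and Pglyrp1 rose by 2.15 to 3.97. Of these, Olfm4, an olfactomedin that only some neutrophils carry, rose 15.7-fold, Chil1 14-fold and Cd177, a surface antigen of neutrophils, 12.3-fold. The peptidoglycan-binding protein gene Pglyrp1 rose 4.43-fold. The cytochrome b558 genes Cybb and Cyba, which lie in these granules' membrane, rose by 2.67 and 1.94. Haptoglobin (Hp) and transcobalamin (Tcn2) rose by 0.83 and 0.63. Slpi, Stom, B2m and Ptx3 were not called, with changes of 0.62, 0.19, 0.20 and 0.11. The protease inhibitor gene Slpi read 11.03, 10.87, 11.03 and 9.80 in GMP and 11.25 to 11.38 in PreGr, and without GMP 4 its smaller change of 0.33 was called (adjusted p = 0.0214).

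**Figure D2:**
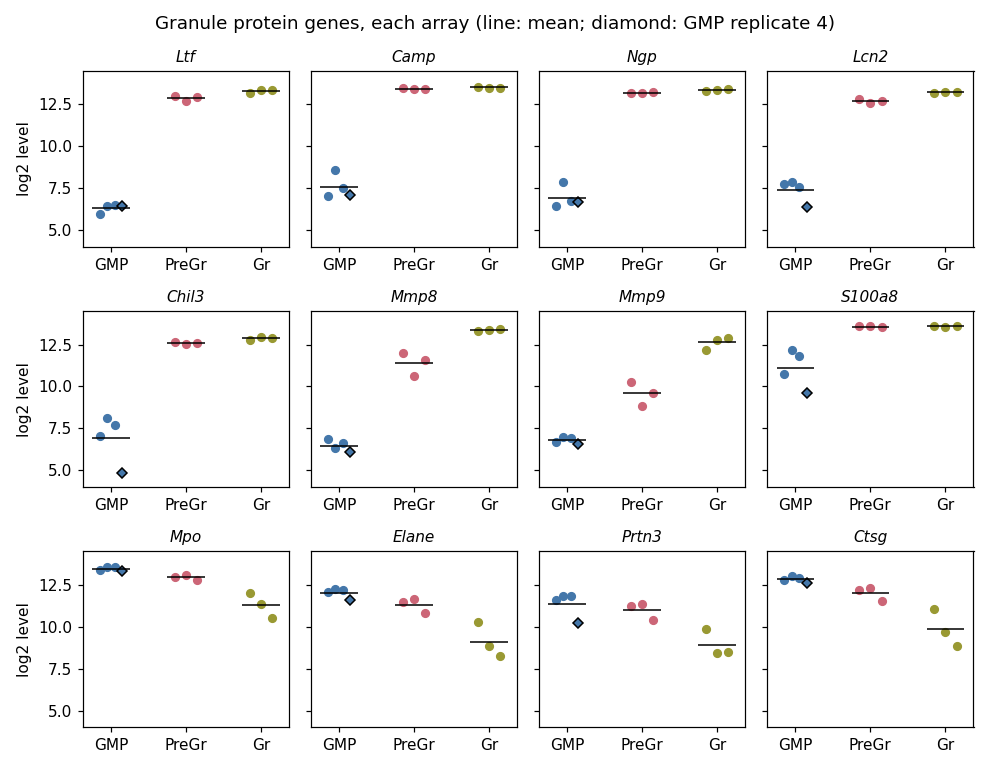
Level (log2) of 12 granule protein genes on each GMP (n = 4), PreGr (n = 3) and Gr (n = 3) array, with a line at each mean. Ltf, Camp and Ngp stand near 13 in PreGr and Gr, Mmp8 and Mmp9 rise again in Gr, and Mpo, Elane, Prtn3 and Ctsg are lowest in Gr; the diamond marks GMP 4, which is low for Chil3, Lcn2, S100a8 and Prtn3.

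The primary granule genes showed no common direction. Of 16 measured members, 4 were called higher and 3 lower, beside 8.06% and 11.5% of all genes, with a median change of -0.35. Mpo, which encodes myeloperoxidase, read 13.35, 13.52, 13.52 and 13.32 in GMP, 12.98, 13.10 and 12.76 in PreGr, and 11.98, 11.34 and 10.50 in Gr. All PreGr arrays lay below all GMP arrays, by -0.48 ± 0.26 on average (SE, adjusted p = 0.259), and the fall from PreGr to Gr of -1.68 was called (adjusted p = 0.0012). Elane, neutrophil elastase, read 12.09, 12.27, 12.20 and 11.58 in GMP and 11.46, 11.66 and 10.80 in PreGr, a difference of -0.72 ± 0.39 (SE, adjusted p = 0.258). Ctsg, cathepsin G, differed by -0.82 ± 0.40 (SE, adjusted p = 0.206) and Prtn3, proteinase 3, by -0.37 ± 0.43 (SE, adjusted p = 0.661). In Prtn3, GMP 4 stood at 10.22 against 11.57 to 11.82 in GMP 1 to 3. PreGr 3 was the lowest PreGr array in these 4 genes, and the Gr arrays spread more widely than the others, for Ctsg from 8.83 to 11.08.

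The calls in these genes differed between fits. In a fit of the GMP and PreGr arrays alone, 6 members were called lower, among them Mpo (adjusted p = 0.0208), Ctsg (0.0117), Elane (0.0476) and Nkg7 (0.0279), a cytotoxic granule protein gene that differed by -0.74 in the main fit. Without PreGr 1 or without PreGr 3, 1 member was called lower in the fit with Gr, and without GMP 1, GMP 3, PreGr 1 or PreGr 2, 2 members were called higher. The 3 members called lower in the main fit were Cst7, Prss57 and Gusb. Cst7, the cysteine protease inhibitor cystatin F, read 12.09, 12.02, 11.91 and 11.71 in GMP and 10.44, 10.97 and 10.16 in PreGr, a fall of 1.41 ± 0.35 (SE, adjusted p = 0.0141). Prss57, a serine protease of these granules, changed by -0.83 (adjusted p = 0.0494) and the lysosomal β-glucuronidase gene Gusb by -0.55 (adjusted p = 0.00142).

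Lyz2, which encodes lysozyme and is made through all granule stages and in monocytes, read 9.76, 9.46, 9.94 and 9.72 in GMP and 13.17, 13.10 and 13.24 in PreGr. It rose 10.9-fold (log2 3.45 ± 0.11 SE, adjusted p = 7.17e-09). Ctsc, the protease that activates the granule serine proteases, read 9.73 to 9.96 in GMP and 10.82 to 11.44 in PreGr, a rise of 1.28 ± 0.26 (SE, adjusted p = 0.00479), and was lower again in Gr at 8.51 to 9.89. The α-mannosidase gene Man2b1 and the granule membrane protein gene Cd63 rose by 0.36 and 0.28. Serpinb1a, an inhibitor of the granule proteases, differed by 0.41 (adjusted p = 0.05), just short of the call. The proteoglycan gene Srgn, Bpi and Hexa were not called, at -0.32, -0.10 and 0.05.

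Of 14 measured genes of the tertiary granules and secretory vesicles, 8 were called higher and 0 lower, with a median change of 0.74. Mmp9, gelatinase B, read 6.67, 7.01, 6.94 and 6.60 in GMP, 10.28, 8.87 and 9.63 in PreGr, and 12.19, 12.78 and 12.90 in Gr. It rose by 2.78 ± 0.28 (SE, adjusted p = 4.08e-05) into PreGr and differed by 3.04 between PreGr and Gr, so the PreGr arrays lay about midway and varied more among themselves than the GMP arrays. Plaur, the urokinase receptor, rose by 2.67, and the membrane-bound protease gene Mmp25 by 1.30. Adam8, a sheddase, rose by 0.96 into PreGr and was 2.80 higher again in Gr, and Vnn3, a pantetheinase gene, changed by 0.58 and 2.67. Hpse, heparanase, and Cd14, the lipopolysaccharide co-receptor, rose by 0.92 and 0.89, but GMP 4 was low for both, and without it neither was called (adjusted p = 0.053 and 0.0635). Itgam, the remaining called member, is a sort marker. Itgax, Anpep, Cr1l, Qsox1, Arg1 and Alpl were not called, with changes from -0.21 to 0.37. The integrin gene Itgax read 6.61, 6.66, 6.55 and 7.02 in GMP and 7.19, 7.11 and 6.96 in PreGr, and without GMP 4 its change of 0.48 was called (adjusted p = 0.0201). Without PreGr 1, 5 members were called higher.

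Among the S100 and stefin genes, which encode calcium-binding proteins and cysteine protease inhibitors abundant in granulocytes, 10 of 12 measured members were called higher and 0 lower. The median change was 2.51, and 1.91 without GMP 4, where 9 were called. S100a8 and S100a9 encode the calprotectin subunits that fill the neutrophil cytosol. S100a8 read 10.75, 12.19, 11.83 and 9.61 in GMP and 13.58, 13.60 and 13.53 in PreGr, a rise of 2.48 ± 0.46 (SE, adjusted p = 0.0028). S100a9 read 10.75, 12.36, 12.06 and 8.84 in GMP and 13.52 to 13.58 in PreGr, a rise of 2.55 ± 0.64 (SE, adjusted p = 0.014). The GMP arrays differed far more among themselves than the PreGr arrays, with GMP 4 lowest, and without it the rises were 1.98 and 1.83. PreGr and Gr differed by 0.01 and 0.00 in these genes.

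S100a6 rose 20.3-fold, from 7.09 to 9.01 in GMP to 12.52 to 12.77 in PreGr. S100a4, a motility-linked member also high in monocytes, read 8.84, 8.48, 8.73 and 8.17 in GMP and 12.50, 12.35 and 12.73 in PreGr, a rise of 3.97 ± 0.33 (SE, adjusted p = 1.03e-05). It was lower again in Gr, at 9.77 to 11.51 (difference -2.06, adjusted p = 0.0016). Wfdc17 and Wfdc21, of the whey acidic protein family, rose by 4.51 and 2.78. Among the stefins, Stfa3 rose by 3.61 into PreGr and was 3.32 higher again in Gr, while Stfa2 changed by 0.88 into PreGr without a call (adjusted p = 0.0668) and was 4.03 higher in Gr. Cstb and S100a11 rose by 0.94 and 0.38. S100a10, the annexin A2 partner, rose by 1.22, but was not called without GMP 4 (adjusted p = 0.0644), and Csta1 differed by 0.13 without a call.

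The phagocyte NADPH oxidase makes superoxide from a membrane cytochrome and cytosolic subunits. Of 9 measured members, 7 were called higher and 0 lower, with a median change of 1.09. Cybb, the catalytic subunit gp91phox, read 10.28, 10.44, 10.47 and 10.06 in GMP and 13.03, 12.84 and 13.09 in PreGr, a 6.37-fold rise (adjusted p = 1.21e-07). Its partner Cyba read 10.05, 10.06, 10.43 and 9.04 in GMP and 12.05, 11.79 and 11.65 in PreGr, a rise of 1.94 ± 0.26 (SE, adjusted p = 0.000275). Neither differed in a called way between PreGr and Gr. The cytosolic subunits rose less, Ncf4 by 1.53, Ncf1 by 1.15 and the GTPase Rac2 by 1.09, and all 3 were called higher again in Gr, by 0.66, 1.00 and 0.63. The proton channel gene Hvcn1 rose by 0.73 and the chaperone gene Cybc1 by 0.38, the latter without a call when GMP 4 was left out (adjusted p = 0.0611). Rac1 and Vav1 were not called, at 0.26 and 0.22.

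Of 16 transcription factors of the granulocyte lineage, 7 were called higher and 2 lower, beside 8.06% and 11.5% of all genes. The share called lower was near that of all genes, and the median change was 0.35. Cebpe, the factor of the secondary granule stage, read 9.50, 9.69, 9.56 and 8.89 in GMP, 10.80, 10.97 and 10.43 in PreGr and 10.56 to 10.76 in Gr. It rose 2.5-fold (log2 1.32 ± 0.18 SE, adjusted p = 0.000395), with no overlap, and its PreGr and Gr levels differed by -0.09 without a call. Rara, the retinoic acid receptor α gene, rose by 1.74, Ets1 by 1.32 and Spi1, which encodes PU.1, by 0.95, from 9.11 to 9.98 in GMP to 10.56 to 10.60 in PreGr. Nfe2l2, Klf5 and Stat3 rose by 0.64, 0.63 and 0.40. Etv6, a repressor of the Ets family, fell by 0.97, and Gfi1, a repressor that promotes the granulocyte fate, by 0.34 (adjusted p = 0.0438), from 7.91 to 8.28 in GMP to 7.66 to 7.81 in PreGr. Cebpa read 10.10 ± 0.10 (SD, n = 4) in GMP and 9.96 ± 0.10 (SD, n = 3) in PreGr, without a call (-0.14), and was lower in Gr at 9.06 to 9.29 (difference -0.76, adjusted p = 0.00039). Cebpd, Cebpb, Fli1, Runx3, Runx1 and Cbfb were not called, with changes from -0.44 to 0.72. Without GMP 4, Cebpb was called at 0.37 (adjusted p = 0.0262), which made 8 factors higher. Leaving out any single array other than GMP 4 or Gr 1 left 1 factor called lower.

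Among receptors by which neutrophils sense microbes and signals, 16 of 22 pattern recognition genes were called higher and 0 lower (median 0.87, and 13 higher without GMP 4), of 22 cytokine receptor genes 13 and 0 (median 0.62), and of 19 adhesion and chemotaxis receptor genes 11 and 2 (median 0.69). Tlr13, a sensor of bacterial ribosomal RNA, read 5.77, 6.21, 6.52 and 5.62 in GMP and 10.59, 9.50 and 10.51 in PreGr, an 18-fold rise (adjusted p = 1.52e-06). The endosomal RNA sensors Tlr8 and Tlr7 rose by 1.98 and 1.91, the β-glucan receptor gene Clec7a by 1.79 and Ly96, the co-receptor of Tlr4, by 1.67. C5ar1, the receptor of complement C5a, read 6.23, 6.64, 6.24 and 6.17 in GMP and 10.58, 9.39 and 9.54 in PreGr, a rise of 3.52 ± 0.24 (SE, adjusted p = 2.61e-06). The chemokine receptor genes Ccr1 and Cxcr2 rose by 3.00 and 1.74 and were 2.63 and 2.79 higher again in Gr. Cxcr2, which draws neutrophils out of marrow, read 8.22 to 8.96 in GMP, 9.93 to 10.88 in PreGr and 13.03 to 13.24 in Gr.

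Itgb2, the partner of Itgam in Mac1 and so tied to the gate, rose by 2.60. Pecam1 and Itga6, adhesion molecules of progenitors, fell by 1.32 and 0.99. Il1r2, a decoy receptor for interleukin 1, read 6.03 to 6.52 in GMP and 8.71 to 9.68 in PreGr, a 7.05-fold rise (adjusted p = 4.23e-06), and Il18rap, Il17ra, Il10ra and Csf2rb2 rose by 1.98, 1.31, 1.20 and 0.98. Of 14 leukotriene and prostaglandin genes, 6 were called higher and 1 lower. Alox5, which starts leukotriene synthesis, rose 5.13-fold, its activating protein Alox5ap 2.14-fold and Pla2g7, which degrades platelet-activating factor, 4.05-fold, while Ptges3 fell by 0.54. Alox15, high in eosinophils, rose by 1.59, with PreGr 2 highest at 9.73.

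Of 20 inflammatory neutrophil genes, 9 were called higher and 1 lower in PreGr (median 0.65, and 0.47 without GMP 4). Retnlg, a resistin-like secreted protein, read 5.53, 5.78, 5.75 and 5.46 in GMP and 12.06, 11.78 and 11.68 in PreGr, a 74-fold rise (adjusted p = 1.47e-10). The chemokine gene Ccl6 rose 13-fold. Il1b rose by 1.36, from 6.72 to 6.90 in GMP to 7.84 to 8.55 in PreGr, but most of its difference lay later, with 12.25 to 12.75 in Gr. The interleukin 1 antagonist gene Il1rn followed the same steps with 1.20 and 2.39. Sod2, the mitochondrial superoxide dismutase, fell by 0.79 and was not called without PreGr 1.

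Of 25 measured progenitor genes, 12 were called lower and 0 higher, beside 11.5% and 8.06% of all genes, with a median change of -0.40. Cd34 and Kit are sort markers. Angpt1, a ligand of the receptor Tek, read 8.69, 8.57, 8.17 and 9.23 in GMP and 5.75, 6.33 and 5.95 in PreGr, a fall of 2.65 ± 0.27 (SE, adjusted p = 4.48e-05). Cd27, a receptor of the tumour necrosis factor family, read 9.42 to 9.86 in GMP and 7.11 to 7.39 in PreGr, a 5.16-fold fall (adjusted p = 4.3e-07). Adgrl4 and Adgrg1, adhesion G protein-coupled receptors, fell by 2.69 and 1.77. Of these genes GMP 4 was the highest GMP array for Angpt1, Cd27 and Adgrl4. PreGr and Gr levels of Cd27 differed by -0.10.

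Myc, a driver of growth and ribosome synthesis, read 11.43, 11.25, 11.24 and 11.63 in GMP, 9.05, 9.24 and 9.07 in PreGr and 8.23, 7.16 and 7.29 in Gr. It fell 4.82-fold into PreGr (log2 -2.27 ± 0.22 SE, adjusted p = 2.86e-05) and further in Gr, with no overlap at either step. Myb, a factor of proliferating progenitors, fell by 1.48 and Cdk6, a kinase of the G1 phase, by 1.55. Meis1 and Sox4, stem and progenitor cell factors, fell by 1.17 and 0.92.

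The genes with the largest falls outside the lists encode enzymes and other proteins of varied function. Pcgf6, a polycomb group protein, read 8.90, 8.48, 8.79 and 8.12 in GMP and 5.42, 6.02 and 5.77 in PreGr, a 7.15-fold fall (adjusted p = 3.08e-06). The cell surface mucin gene Muc13 fell 6.55-fold, Dctd, the deoxycytidylate deaminase that feeds thymidine nucleotide synthesis, 6.26-fold, and Gstm5, a glutathione transferase, 5.82-fold. The mitochondrial nucleotide kinase genes Ak4 and Nme4 fell by 2.30 and 2.27. Sccpdh, Dph6, of diphthamide synthesis, and the cyclophilin gene Ppic fell by 2.20, 2.17 and 2.12.

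No mitosis gene passed the test between GMP and PreGr, while part of the replication genes fell. Of 22 mitosis genes, limma called 0 in either direction, 0 had an unadjusted p under 0.05, and the median change was 0.09. Other fits called some of them higher, 4 in the fit of GMP and PreGr arrays alone, 1 without GMP 4, and 5 without Gr 3, the lowest Gr array in all 22 genes. Cdk1, the kinase that starts mitosis, read 10.30, 10.42, 10.40 and 10.15 in GMP, 10.93, 11.05 and 10.64 in PreGr and 9.82, 9.54 and 8.39 in Gr. All PreGr arrays lay above all GMP arrays, by 0.56 ± 0.27 (SE, adjusted p = 0.198), and in the fit of GMP and PreGr alone this was called (adjusted p = 0.01). Nusap1 and Ube2c differed by 0.44 and 0.40 and Bub1 by -0.30. Of the same 22 genes, 18 were called lower in Gr than in PreGr, beside 12.6% of all genes.

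Of 24 DNA replication genes, 9 were called lower and 0 higher in PreGr, with a median change of -0.46. Pole, a replicative polymerase, read 8.99, 9.04, 8.89 and 9.30 in GMP and 8.04, 8.15 and 7.79 in PreGr, a fall of 1.06 ± 0.22 (SE, adjusted p = 0.00503). The helicase genes Mcm2, Mcm6 and Mcm7 fell by 0.77, 0.90 and 0.72, the origin recognition gene Orc1 by 0.83 and the clamp loader gene Rfc5 by 0.79. Pola1 fell by 0.77. Without GMP 4 neither Mcm6 nor Pola1 was called (adjusted p = 0.0898 and 0.0918). The count rested on single arrays, falling to 4 without GMP 1, GMP 3, PreGr 1 or PreGr 3 and 5 without GMP 2, and reaching 14 without Gr 3. Gr stood lower still for most of these genes, for Pole at 6.07 to 7.14.

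Regulators of G1 moved in both directions, 6 of 20 higher and 3 lower, beside 8.06% and 11.5% of all genes. The D cyclins changed in opposite ways. Ccnd2 read 10.92, 11.04, 10.91 and 11.06 in GMP and 8.75, 9.52 and 8.95 in PreGr, a fall of 1.91 ± 0.15 (SE, adjusted p = 8.88e-06), and Ccnd3 rose by 1.01, from 8.06 to 8.37 in GMP to 9.09 to 9.46 in PreGr. Cdk4 and Cdk6 fell by 0.92 and 1.55. The kinase inhibitor genes Cdkn1b (p27) and Cdkn2d (p19) each rose 2.65-fold. The retinoblastoma gene Rb1 and the factor gene E2f2 rose by 1.18 and 1.02.

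**Figure D3:**
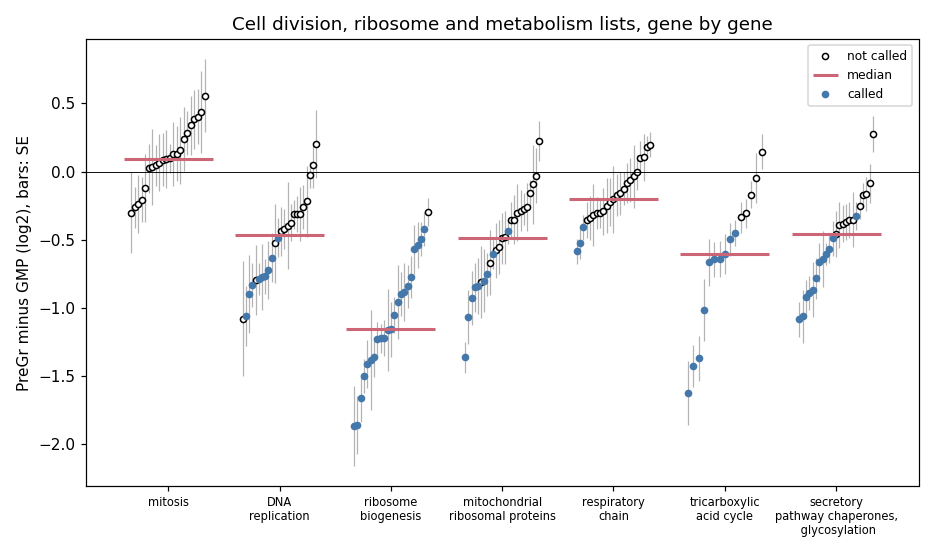
Change from GMP to PreGr (log2, bars show the SE) of each measured gene in 7 lists of cell division, ribosome, mitochondrial and secretory genes, sorted within each list, with filled points for called genes. The median lies at 0.09 for mitosis, -0.46 for DNA replication and -1.16 for ribosome biogenesis.

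Ribosome biogenesis, the making of ribosomes in the nucleolus, was the list with the most uniform fall. Of 23 measured genes, 22 were called lower and 0 higher, with a median change of -1.16, and Ncl, nucleolin, was the exception at -0.30. Without GMP 4, 20 members were called lower, Ncl among them (-0.36, adjusted p = 0.011). Dkc1, the pseudouridine synthase dyskerin, read 11.18, 11.06, 10.99 and 11.17 in GMP, 9.28, 9.33 and 9.10 in PreGr and 8.28, 7.53 and 7.12 in Gr. It fell 3.63-fold into PreGr (log2 -1.86 ± 0.21 SE, adjusted p = 9.8e-05), with no overlap at either step. Gnl3, nucleostemin, fell 3.64-fold, Utp4, of the small subunit processome, 3.16-fold and Polr1b, a subunit of RNA polymerase I, 2.82-fold. Nop58, a core protein of small nucleolar ribonucleoproteins, fell by 1.38 and was not called without GMP 4 (adjusted p = 0.0505). On deposited values with GMP 4 kept, 11 members were called lower.

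In the mitochondrial and secretory lists, counts of members called lower stood beside 11.5% of all genes called lower. Of 25 mitochondrial ribosomal protein genes 9 were called lower (median -0.49), and 12 without GMP 4, of 15 genes of the tricarboxylic acid cycle 10 (median -0.61), of 23 respiratory chain genes 3 (median -0.20) and of 23 secretory pathway chaperone and glycosylation genes 12 (median -0.46). The respiratory chain share was near that of all genes. None of the members of these 4 lists was called higher. Suclg2, a subunit of succinyl-CoA ligase, read 10.31, 10.36, 10.29 and 10.37 in GMP and 8.26, 9.35 and 8.51 in PreGr, a fall of 1.63 ± 0.23 (SE, adjusted p = 0.000515). The isocitrate dehydrogenase genes Idh3a and Idh2 fell by 1.43 and 1.37 and the fumarase gene Fh1 by 1.01. Mrps27 and Mrps22 fell by 1.36 and 1.07. Sdha, the succinate dehydrogenase flavoprotein that also belongs to the cycle, fell by 0.41. The chaperone gene Calr read 12.28 to 12.44 in GMP and 11.18 to 11.46 in PreGr, a fall of 1.08 ± 0.13 (SE, adjusted p = 0.000134), and Pdia4, P4hb and Hyou1 fell by 1.06, 0.92 and 0.89. In the fit of GMP and PreGr alone, 14 mitochondrial ribosomal and 6 respiratory chain genes were called lower, and without Gr 1 14 mitochondrial ribosomal genes.

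Of 17 glycolysis and glycogen genes, 2 were called higher and 4 lower, and of 18 cholesterol synthesis genes 1 and 2, beside 8.06% and 11.5% of all genes. Slc2a3, a glucose transporter, read 7.52, 7.70, 7.58 and 7.13 in GMP, 9.58, 9.56 and 9.26 in PreGr and 11.30 to 12.19 in Gr, a 3.97-fold rise into PreGr (adjusted p = 4.41e-05). Pygl, which breaks down glycogen, rose by 1.46, and the phosphofructokinase gene Pfkl fell by 0.62. Of 19 lysosome and autophagy genes 9 were called higher and 2 lower, and 1 lower without PreGr 2 or without PreGr 3, with Ctsb, a cathepsin also high in monocytes, at 0.76 and the acid glucosidase gene Gaa at -0.82.

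Among 21 nuclear envelope and chromatin genes, 7 were called higher and 3 lower, beside 8.06% and 11.5% of all genes. The nesprin genes Syne1 and Syne2, which tie the nucleus to the cytoskeleton, rose by 2.30 and 1.82. Padi4, which citrullinates histones, rose by 1.31 and Lbr, the lamin B receptor needed for nuclear lobing, by 0.64, from 10.60 to 10.72 in GMP to 11.17 to 11.37 in PreGr. The DNA methyltransferase genes Dnmt3b and Dnmt3a fell by 1.19 and 0.92. Of 14 Bcl2 family genes, 4 were called higher and 2 lower, and the share called lower was near that of all genes. Bcl2 read 9.95 to 10.29 in GMP and 8.77 to 9.16 in PreGr, a fall of 1.23 ± 0.13 (SE, adjusted p = 5.17e-05), while Mcl1, on which neutrophil survival depends, and Bcl2l1 rose by 0.66 and 0.78. Of 19 interferon response genes, 13 were called higher and 0 lower (median 0.76), and 11 higher without GMP 4. Ifit3 read 5.61 to 6.00 in GMP and 7.35, 6.99 and 9.11 in PreGr, Mx1 rose by 1.45 and the factor gene Irf7 by 1.06. PreGr 3 was the highest PreGr array for Ifit3 and Irf7, and without it the median of this list was 0.59.

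**Figure D4:**
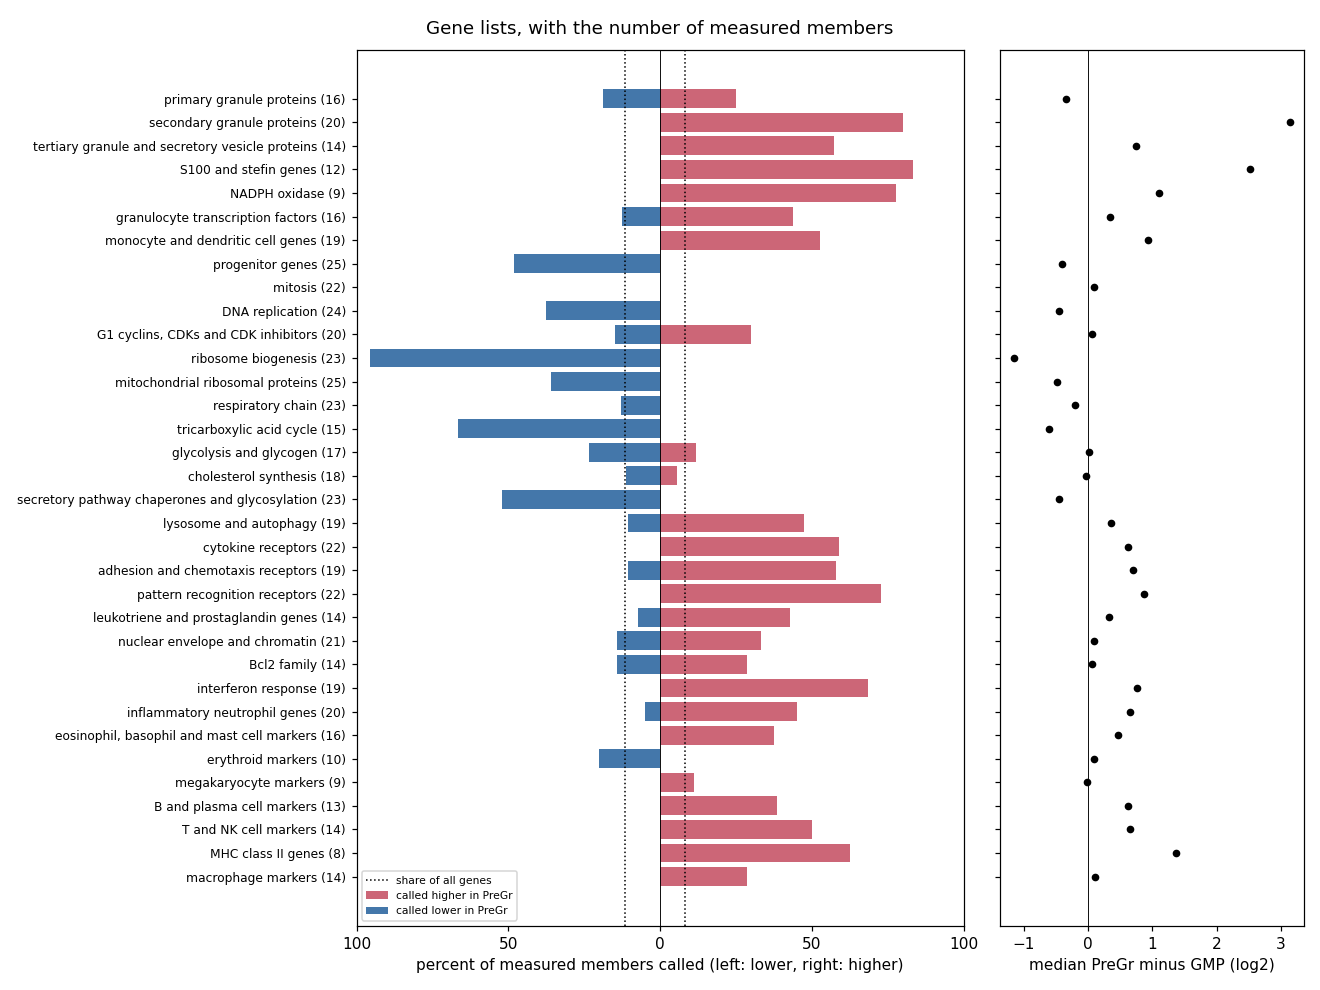
Share of the measured members of each gene list called higher (right) or lower (left) in PreGr than in GMP, with dotted lines at the shares of all genes (8.06% higher, 11.5% lower), and the median change of each list in log2. Secondary granule, S100 and oxidase lists reach furthest to the right and ribosome biogenesis furthest to the left.

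Part of the markers of other myeloid and lymphoid cells were called higher in PreGr, beside 8.06% of all genes called higher and 11.5% called lower. GMP were sorted as cells lacking lineage markers, while the labels name only Mac1 and Gr1 for the PreGr gate. The gates thus differed in which mature cells they left out, and the part of this in the calls below was not tested. Of 19 monocyte and dendritic cell genes, 10 were called higher and 0 lower than in GMP, and their summed linear level ranged from 13080 to 16243 in GMP, from 27095 to 36464 in PreGr and from 9667 to 17320 in Gr. From PreGr to Gr, 17 of the 19 were called lower, beside 12.6% of all genes. Ms4a4c read 8.07, 7.33, 7.81 and 6.24 in GMP, 10.93, 10.37 and 11.38 in PreGr and 7.63 to 9.58 in Gr. Cd209a, a lectin of monocyte-derived dendritic cells, rose by 2.74, the cathepsin gene Ctss by 2.18, Ccr2, the chemokine receptor that takes monocytes out of marrow, by 1.90 and Csf1r, the receptor of the macrophage growth factor, by 0.93. All 4 were called lower in Gr than in PreGr. F13a1, a monocyte gene, read 10.84 to 11.49 in GMP and 11.20 to 11.76 in PreGr and was not called (0.30). PreGr 3 was the highest PreGr array for Ms4a4c, Cd209a, Ctss and Ccr2.

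Markers of eosinophils, basophils and mast cells were called higher in 6 of 16 and lower in 0, and their sum was 5929 to 7572 in GMP, 11117 to 21550 in PreGr and 8306 to 13318 in Gr. Prg2, the eosinophil major basic protein, read 10.28, 9.80, 10.19 and 10.63 in GMP and 12.29, 12.77 and 11.68 in PreGr. Prg3, Epx, Ccr3 and Ear6, genes of eosinophils, rose by 1.91, 1.21, 1.85 and 3.43, and the basophil protease gene Prss34 by 2.62. PreGr 2 was the highest PreGr array in each of these 6 genes. The mast cell protease genes Cpa3 and Cma1 were not called, with changes of -1.05 and -0.30.

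Of 8 MHC class II genes, 5 were called higher, and their sum was 2004 to 2373 in GMP, 7446 to 8477 in PreGr and 2938 to 7846 in Gr. H2-Aa read 6.64, 7.19, 6.64 and 7.02 in GMP, 11.02, 11.21 and 10.82 in PreGr and 9.33 to 11.34 in Gr, and H2-Ab1 and the invariant chain gene Cd74 rose by 2.05 and 3.03. Of 14 T and NK cell markers 7 were called higher, with sums of 4134 to 5108 in GMP, 5407 to 6157 in PreGr and 6551 to 9415 in Gr. Gzma, granzyme A, read 5.79 to 6.14 in GMP, 9.66, 9.71 and 10.45 in PreGr and 6.43 to 7.34 in Gr, and the NK receptor gene Klrd1 rose by 2.47. Cd3d, a chain of the T cell receptor complex, read 5.70 to 6.55 in GMP, 10.42, 8.82 and 9.95 in PreGr and 12.24 to 12.69 in Gr, a course unlike that of Gzma. The T cell genes did not move together. Cd3g and Cd2 rose by 1.09 and 1.55, but Cd3e, a chain of the same complex as Cd3d, changed by -0.08 without a call. Cd4, Cd8b1 and Cd8a were not called either, at -0.04, -0.05 and 0.12.

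Of 13 B and plasma cell markers 5 were called higher, with sums of 1808 to 2242 in GMP, 3020 to 4752 in PreGr and 3455 to 7261 in Gr. Jchain, the joining chain of secreted antibodies, read 4.49 to 5.21 in GMP and 9.86, 10.91 and 9.37 in PreGr, a 34.4-fold rise (adjusted p = 0.000119). Ms4a1 (CD20) and Cd79a, of the B cell receptor, read 6.10 to 7.27 and 6.71 to 6.80 in PreGr, below the median gene level of 7.46, and rose by 1.57 and 1.35. Without PreGr 2 or without PreGr 3 the count was 3, and without Gr 2 it was 8. Of 14 macrophage markers 4 were called higher, among them Adgre1 (F4/80) by 2.15 and the heme oxygenase gene Hmox1 by 1.41. Without GMP 1 the macrophage count was 2. The macrophage sums were 1677 to 2102 in GMP, 3020 to 3432 in PreGr and 3260 to 3336 in Gr. Of 10 erythroid markers 2 were called lower and 0 higher, with Tfrc, the transferrin receptor, at -1.05. Changes above 0 were seen in 7 of the 10, and the median change was 0.08. The erythroid sums were 2271 to 2558 in GMP, 1848 to 2032 in PreGr, without overlap, and 1755 to 1896 in Gr. Mean log2 levels of the list did overlap, at 7.16 to 7.30 in GMP and 7.21 to 7.25 in PreGr. Of 9 megakaryocyte markers 1 was called higher, Itgb3 at 0.64, a share near that of all genes. The megakaryocyte sums were 1566 to 1772 in GMP, 1620 to 2184 in PreGr and 1888 to 2054 in Gr. Array values have no true zero, and of the markers listed 8 of 14 macrophage, 7 of 14 T and NK cell, 6 of 13 B and plasma cell and 4 of 16 eosinophil, basophil and mast cell genes stood below the median gene in both GMP and PreGr. The part of these cell types in the changes of the other lists was not tested.

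**Figure D5:**
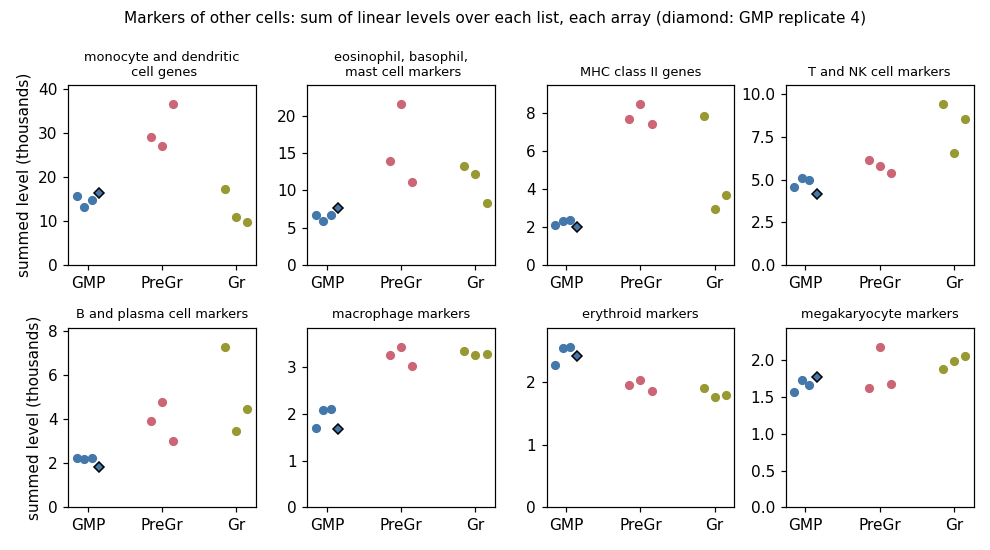
Sum of the linear levels over each list of markers of other cells on each GMP (n = 4), PreGr (n = 3) and Gr (n = 3) array, with axes from 0 and the unit given there. The monocyte and dendritic cell sum is 27095 to 36464 in PreGr against 13080 to 16243 in GMP, and the sums of eosinophil, basophil and mast cell markers and of MHC class II genes are also higher in every PreGr array; the diamond marks GMP 4.

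Of the 14 largest rises, Ifitm6, Slfn1, Fn1, Plbd1 and Klra2 belonged to none of the gene lists. Ifitm6, of the interferon-induced transmembrane family, read 7.17, 6.85, 6.80 and 6.52 in GMP and 12.47, 12.13 and 12.33 in PreGr, a 44.6-fold rise (adjusted p = 1.21e-09). Slfn1, of the Schlafen family, rose 36.3-fold, Plbd1, a phospholipase B-like protein, 32.1-fold and Klra2, an inhibitory receptor of the Ly49 family, 31-fold. These 4 were called higher again in Gr. Fn1, fibronectin, took another course. It read 7.11, 7.10, 7.13 and 6.76 in GMP, 12.19, 11.89 and 12.53 in PreGr and 10.45, 10.01 and 9.49 in Gr, a 36.2-fold rise into PreGr (adjusted p = 5.4e-08) and a difference of -2.22 from PreGr to Gr (adjusted p = 7.2e-05).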

How the data were processed

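RNA of sorted bone marrow cells was amplified and hybridised to Affymetrix mouse gene arrays, per the labels' protocols. The deposited values are log2 levels from robust multi-array averaging (RMA), per the submitters' processing notes. The RMA version is not given in the sources used here. Of 35557 probes, 21789 were assigned to 1 gene, and the brightest probe stood for a gene, which gave 19938 genes. Because GMP 4 lay on another level, the values of the 10 GMP, PreGr and Gr arrays were quantile-normalized and fitted with limma 3.58.1 (R 4.3.3), with 1 mean per population, 7 residual degrees of freedom and Benjamini-Hochberg adjustment over all genes. The steps were tested on simulated data: of 100 genes changed 2-fold 82 were called, of 100 changed 4-fold 99, and of 19738 unchanged genes 14. The simulated noise was normal, with 1 spread per gene for all populations, and GMP 4 was lowered by a common factor. On the real arrays far more genes were called, and GMP 4 was the outlying array gene by gene in 1513 genes. The simulated shares therefore need not hold for the real arrays. The number of arrays limits the precision. P-values measure the spread between these samples, and no label says from which animals they came.

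Members and lists were chosen with earlier results of these data known. Named were the 14 largest rises and the 14 largest falls among genes called with and without GMP 4 that did not overlap (genes without a descriptive name were passed over), up to 5 called members of each list in each direction, and every member of the granule, S100, oxidase and transcription factor lists. Some uncalled members were named after their values were seen, to complete a count. Over all genes, same-numbered GMP and PreGr arrays did not deviate together (correlations 0.0328, 0.0447 and -0.0673), so the numbers were not used as pairs. Sex-linked transcripts did follow the number, as given below, so shared animals or pools cannot be told from these correlations. Alternatives were 22 other settings. Promoters are RefSeq's (GRCm38.p6).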

Additional observations from a re-analysis of the deposited data

Results flagged for a closer look

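Among the 4 GMP arrays, 1859 genes (9.32%) had 1 array whose gap to the nearest other array took up a share of the group's range above Dixon's critical value for 4 samples, where chance gives about 1 in 20 groups. GMP 4 was that array in 1513 genes, low in 673 and high in 840, against 139 for GMP 1, 80 for GMP 2 and 127 for GMP 3. The values below give the array's log2 level and the share of the range that its gap took up.

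GMP 4 read low, at 9.80 for Slpi (0.865), 10.22 for Prtn3 (0.842), 9.49 for Cr1l (0.913), 7.23 for Hvcn1 (0.837) and 10.93 for Alox5ap (0.833), and also at 6.76 for Fn1 (0.908) and 7.66 for Prss34 (0.864). GMP 4 was high for S100a11 (0.985), Man2b1 at 10.80 (0.892), Idh3a at 9.74 (0.889), Dnmt3b at 8.74 (0.888), Cma1 at 6.92 (0.963) and Anpep at 6.84 (0.833). Without GMP 4 Slpi became called, and the calls of Hvcn1, Alox5ap, Fn1, Prss34, S100a11, Man2b1, Idh3a and Dnmt3b were made both ways.

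GMP 1 was low for Ltf at 5.97 (0.871) and Cd79a at 5.02 (0.833). GMP 2 was high for C5ar1 at 6.64 (0.852), and GMP 3 for Hmox1 at 7.42 (0.853) and Alox15 at 7.63 (0.841). These gaps were small beside the rises of the same genes into PreGr.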

How the results depend on the processing

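On deposited values with GMP 4 kept, 1590 genes were called between PreGr and GMP, 1060 higher and 530 lower, and 1788 between Gr and PreGr. There 42 of the 180 called genes named in the text lost the call, and 0 turned. Over all probes, 1605 passed the call with at least 2-fold, of 35557 tested. Leaving out 1 array in turn gave 2994 to 4197 called genes, 1266 to 1729 higher and 1728 to 2468 lower, 917 to 1103 with at least 2-fold, and 3125 to 5561 for Gr against PreGr. The named called genes that kept their call numbered 157 without PreGr 1, 162 without PreGr 3 and 167 to 178 without any other array. With the replicate number as a block, 3887 genes were called, 1569 higher and 2318 lower, and 173 of the 180 kept their call. GMP 4 alone carries the number 4 among the fitted arrays. In the block fit it therefore added nothing to the difference between PreGr and GMP beyond its part in the normalization. Xist had the same order by number in GMP 1 to 3 and PreGr 1 to 3. The Y-linked Eif2s3y read 9.41, 7.96 and 9.06 in GMP 1 to 3, 9.48, 8.48 and 9.64 in PreGr and 10.39, 8.97 and 10.26 in Gr. Kdm5d, also Y-linked, was likewise lowest in replicate 2 of GMP 1 to 3, PreGr and Gr. Sex-linked transcripts thus followed the number, a hint from the data and not from the design. Whether same-numbered arrays share animals or pools was not tested. The counts with the other settings that test all 19938 genes at normalized levels were 3245 to 5270, and 3462 of 9969 genes when dim ones were left out.

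On deposited values, fewer members were called in several lists: 3 of the tricarboxylic acid cycle, 0 chaperones, 1 of DNA replication, 1 mitochondrial ribosomal protein, 0 of the respiratory chain, 3 lysosome genes higher, 6 S100 and stefin genes, 8 cytokine receptors, 9 pattern recognition receptors and 4 transcription factors higher. Genes without a call that changed sign were, on deposited values, Bpi (0.052), Arg1 (0.092), Cebpa (0.003), Cbfb (0.131) and Fcgr3 (0.045). Cbfb also turned without GMP 4 (0.002), with array weights (0.023), with the replicate block (0.002), without GMP 3 (0.003) and without PreGr 2 (0.033). Without 1 array, the range was -0.092 to 0.033 for Cbfb, -0.002 to 0.153 for Hexa, -0.132 to 0.012 for Arg1, -0.034 to 0.115 for Alpl and -2.296 to 0.389 for Xist. Cr1l turned without GMP 4 on deposited values (-0.042, with or without the Gr arrays), Hexa without PreGr 3 (-0.002), Arg1 (0.012) and Xist (0.389) without PreGr 1, and Alpl without GMP 1 (-0.034). The fit of only GMP and PreGr arrays without GMP 4 on deposited values, chosen after seeing the data, called 5061 genes, 2033 higher and 3028 lower. The causes were not tested. Camp and S100a8 read close to the highest level of any gene, 13.85 after normalization, and whether the scale limits a further rise was not tested.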
